A study of Mus musculus with 40 samples.

Results

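The transcription factor genes Zfp503, Egr2, Tbx20 and Zfp422 were followed through repeat copies that lie in their exons, in poly(A) RNA-seq of a mouse melanoma line and of cells grown out of its serially passaged tumours. The deposited table lists reads per repeat copy and not per gene, so each gene is seen through the part of its transcript that the repeat annotation covers. One index copy marked each gene, and all rows within 10000 bases of it (mm10) were added. This gave 47 of the 835636 rows, with 9 around Zfp503, 3 around Egr2, 29 around Tbx20 and 6 around Zfp422. A mean signal of at least 5 over the 40 libraries was needed for a test, and 7 of the 47 rows reached it. These 7 were the 4 index copies, a second Zfp422 copy and 2 copies in the neighbouring gene Ado.

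Zfp503 (also called Nolz1) is a zinc finger repressor of the NET family that works with Groucho corepressors in embryonic patterning. Egr2 (Krox20) is a zinc finger activator of the early growth response family, induced within minutes by growth factor signalling and required for myelination by Schwann cells, which share a neural crest origin with melanocytes. Tbx20 is a T-box factor best known from heart development, and Zfp422 encodes a small protein made largely of C2H2 zinc fingers.

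YUMM1.7 is a cultured melanoma line derived from a C57BL/6 mouse tumour with mutant Braf, and every group here descends from it. The 11 groups were YUMM1.7 (3 cultures, 1 to 3), F0 (4 tumours, A to D), F1 (4, A, B, D and E), F2 (5, A to E), N2.1 (5, A to E), N2.2 (3, A to C), N2.3 (3, A to C), Balb/c-1 (4, A to D), Balb/c-2 (3, A to C), Balb/c-2 rep2 (second libraries of the same 3 tumours) and CBA (3, A to C). Inbred mouse strains of the names Balb/c and CBA exist. The labels give no host genotype or age and do not state what N2 stands for. They give dissociated tumour as the tissue and melanoma as the cell type for every library, the YUMM1.7 cultures included. Tumour cells had been grown in culture for 1 to 3 passages before RNA was taken. Each passage was made once, so p-values measure the spread between libraries within groups and not between repeats of a passage. The main test pools this spread over all 11 groups, the YUMM1.7 cultures and the second Balb/c-2 libraries included. The libraries held 1280522 to 2976730 reads on repeat copies. A first and a second sequencing batch are described, with F2 sequenced again in the second, but libraries are not assigned to them. The names of the Balb/c-2 rep2 and CBA libraries alone carry a flow cell and lane, the same for 5 of these 6 and another for rep2 B. For the other groups, batch and passage cannot be told apart.

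One library stood apart before any result is given. In N2.3 C, Tnnt2, the only one of 4 heart muscle markers with copies, had a summed signal of 54.5, against 5.02 in N2.2 B, 3.03 in Balb/c-2 rep2 C and 0 in every other library. Among 10 melanocyte markers, 3 had copies and only Pax3 had enough signal for a test, with group means of 9.54 to 23.7, so the labelled cell type could hardly be checked in this table. Summed T cell markers reached at most 1.88, endothelial markers 3.26 and leukocyte markers 15.5 in any library. Fibroblast markers (4 of 8 with copies) were high throughout, with sums of 627.7 to 2759 over all libraries and of 1635 to 2606 in the YUMM1.7 cultures. Of the 2 that could be tested, Pdgfrb was called in no comparison. Pdgfra, a growth factor receptor, had a lower mean in N2.1 than in F2, at 464 ± 399 against 721 ± 262 (limma, −0.87, SE 0.29, adjusted p = 0.0373). In that comparison 15.1% of all genes tested through summed exon copies were called. The ranges of Pdgfra overlapped, with 431.6 to 1126 in F2 and 235.9 to 1171 in N2.1. The part of other cell types in the results was not tested. In bulk libraries, fewer cells of a type and less RNA per cell cannot be told apart.

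The index copies were chosen by measured values, each for an extreme difference in signal in 1 comparison, and those differences are given as descriptions without a test. On the log2(signal + 1) scale, MuRRS-int in Zfp503 had the lowest difference among 412 called copies whose N2.3 and N2.1 groups did not overlap, at −5.94. The 5th and 6th copies on that list stood at −3.95 and −3.68. MMSAT4 in Egr2 was the 4th lowest of 669 such copies for Balb/c-1 against N2.3, at −4.69, with the 5th at −4.60 and the 6th at −4.57. B1_Mus1 in Tbx20 was the 5th highest of 11 for F2 against F0, at 1.81, and the 6th stood at 1.28. MurSatRep1 in Zfp422 was the 5th lowest of 1824 for N2.1 against F2, at −5.05, with the 6th at −4.99. Any comparison that shares a group with the one that chose a copy is likewise described only.

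Sequences are shown for coding stretches of the index copies, because they show which part of each protein these stretches encode. For Zfp422 only the 250 bases shared with the overlapping MMSAT4 copy are printed. All were cut from GENCODE M21 transcripts on GRCm38 and are written in the sense of the gene. In the Egr2 and Zfp422 lines, capitals mark the cysteine and histidine codons of the C2H2 zinc finger pattern (2 cysteines 2 to 4 residues apart, 12 residues, then 2 histidines 3 or 4 residues apart). In the Zfp503 line they mark the start codon.
Zfp503 MuRRS-int, coding part, chr14:21987495-21987533, minus strand: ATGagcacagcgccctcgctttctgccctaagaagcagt
Egr2 MMSAT4, chr10:67540644-67540777, plus strand: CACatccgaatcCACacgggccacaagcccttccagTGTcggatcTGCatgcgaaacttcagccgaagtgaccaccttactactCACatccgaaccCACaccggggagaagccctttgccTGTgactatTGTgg
Zfp422 MurSatRep1, part shared with MMSAT4, chr6:116626508-116626757, minus strand: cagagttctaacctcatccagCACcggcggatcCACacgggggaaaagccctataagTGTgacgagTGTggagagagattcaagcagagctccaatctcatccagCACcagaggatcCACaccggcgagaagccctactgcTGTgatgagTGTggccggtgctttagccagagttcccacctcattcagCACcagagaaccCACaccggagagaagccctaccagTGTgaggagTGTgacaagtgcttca

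The Egr2 and Zfp422 copies are zinc finger coding sequence. The encoded Egr2 protein has 470 residues and 3 pattern matches, of which 1 lies whole in the MMSAT4 copy and all 3 touch it. Zfp422 has 237 residues and 5 matches, of which 4 lie whole in the 369 bases of MurSatRep1 (chr6:116626508-116626876) and all 5 touch it. MuRRS-int (chr14:21987495-21987585, 91 bases) holds the first 39 coding bases of the 652-residue Zfp503 protein and otherwise 5′ UTR. B1_Mus1 in Tbx20 (chr9:24723767-24723915, 149 bases, minus strand) lies wholly in the 3′ UTR and holds no coding base, so its sequence is not shown. Each window of 50 bases of a copy was also searched for in the transcripts of all other genes. None of the 42 windows in Zfp503, 85 in Egr2 and 100 in Tbx20 occurred in a transcript of another gene. Introns and sequence between genes were not searched, so matches there cannot be judged. In Zfp422, 118 of 320 windows (36.9%) also occurred in the pseudogene Zfp422-ps and in Zfp955b, whose 3′ UTR holds that pseudogene on chromosome 17, so reads of these could be shared.

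Zfp503 signal was high up to F2, lower in N2.1 and close to 0 from N2.2 on. Its index copy is the only exon copy of the gene, so copy and gene sum are the same value. In the YUMM1.7 cultures the signal was 733, 450.3 and 424 (536 ± 171, SD, n = 3), where 1 read is worth 0.659 to 1.513 of this unit depending on the library. F0 tumours stood at 445, 348, 464 and 495 (438 ± 63.5, n = 4), F1 at 613, 422, 400.0 and 610.2 (511 ± 116, n = 4), and F2 at 343, 446, 426, 475 and 388 (416 ± 51.6, n = 5). These 4 groups overlapped each other.

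The first step was in N2.1. Its 5 tumours A to E had Zfp503 signals of 134, 164, 125, 208 and 233 (173 ± 46.9, n = 5), which is 41.6% of the F2 mean and 32.3% of the YUMM1.7 mean. Every N2.1 tumour lay below every F2 tumour. The second step was in N2.2, with 7.25, 2.51 and 8.36 in tumours A to C (11, 3 and 8 reads), a mean 3.49% of that in N2.1. In N2.3, tumours A and B were listed at 0 and tumour C at 19.7 (26 reads), a mean 3.8% of N2.1 that rests wholly on the library that also carried Tnnt2.

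In the later tumours the Zfp503 copy was close to empty. It was at 0 in all 4 Balb/c-1 and all 3 CBA libraries, at 2.29 (2 reads) in Balb/c-2 C and at 1.1 (1 read) in Balb/c-2 rep2 B, and at 0 in the other Balb/c-2 libraries. With a floor of 3 reads per library, the YUMM1.7 mean was at least 188-fold higher than in Balb/c-1 and at least 162-fold higher than in CBA. The N2.1 mean was at least 60.6-fold and 52.3-fold higher than in the same 2 groups. N2.3 and N2.2 overlapped, and the lowest N2.2 value (3 reads) and the highest Balb/c-2 value (2 reads) lay too near the floor to be ordered.

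**Figure D1:**
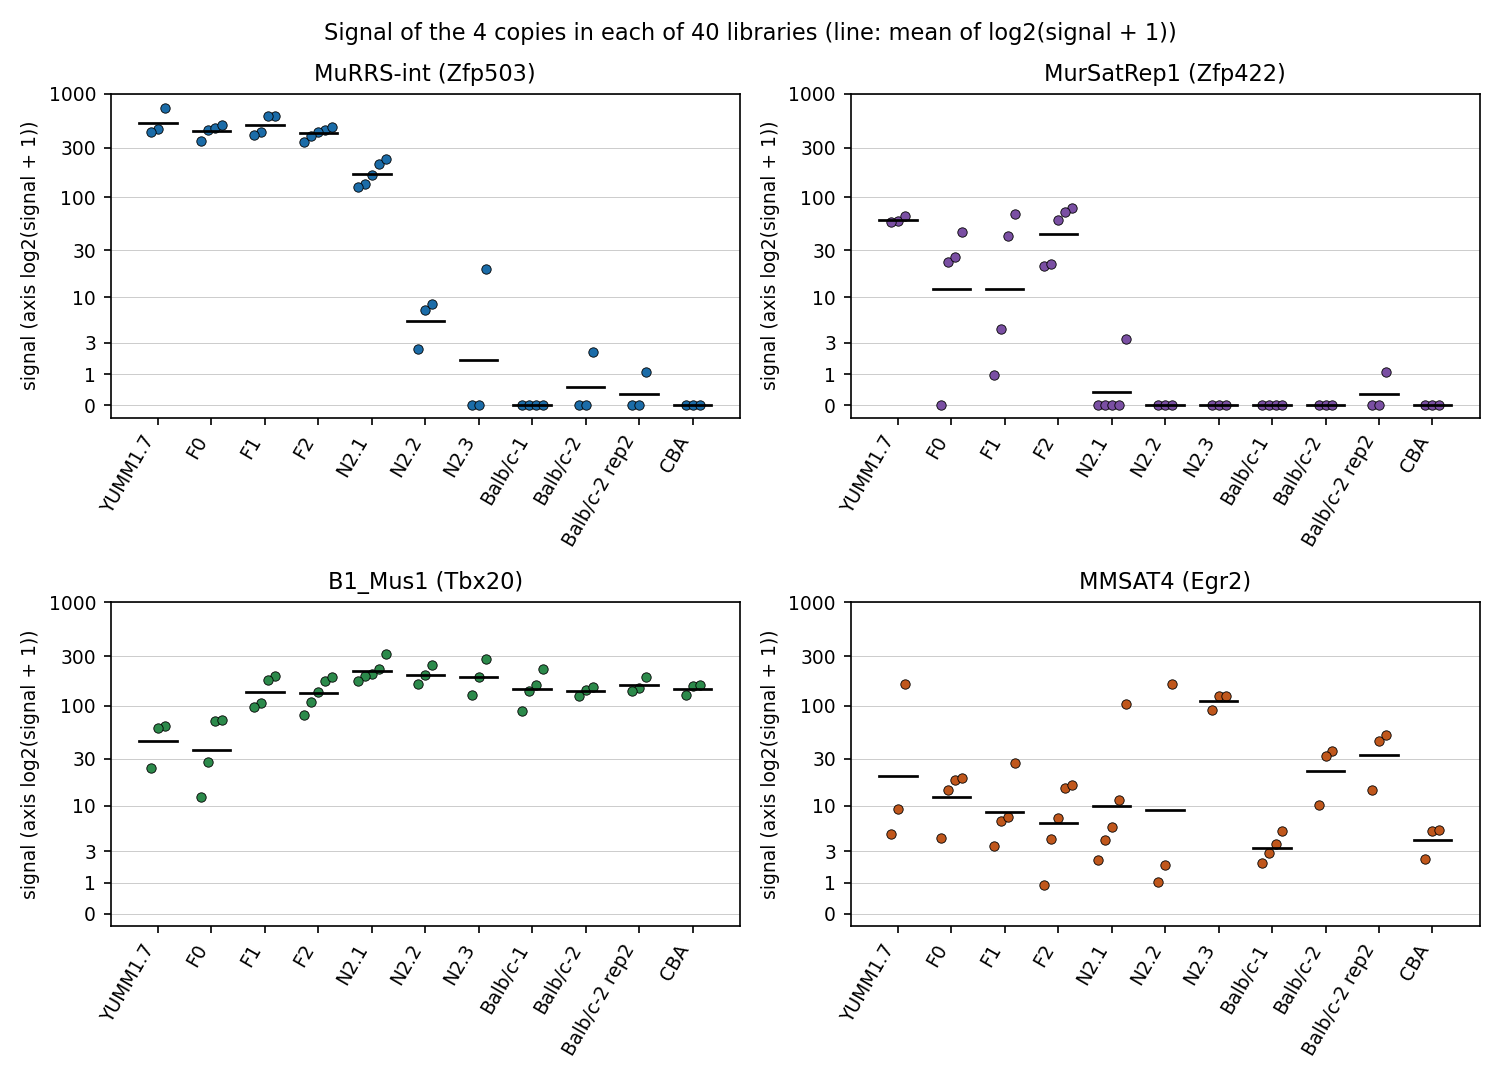
Signal of the 4 index copies in each library (points), with a line at the group's mean of log2(signal + 1). The vertical axis is spaced as log2(signal + 1) and includes 0, and the 11 groups stand along the horizontal axis. Zfp503 stands at 343 to 733 up to F2 and at 0 in all Balb/c-1 and CBA libraries, Zfp422 is at 0 in nearly all libraries from N2.1 on, Tbx20 is lowest in YUMM1.7 and F0, and Egr2 is highest as a group in N2.3.

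Comparisons that had no part in choosing Zfp503 showed no call. The limma test, with Benjamini-Hochberg adjustment over the 33215 tested copies, gave −0.26 for F0 against YUMM1.7 (adjusted p = 0.928), 0.21 for F1 against F0 (0.881), −0.28 for F2 against F1 (0.929) and −0.07 for F2 against F0 (0.979). The described differences, on the same log2 scale, were −1.29 for N2.1 against F2, −4.71 for N2.2 against N2.1, −1.24 for N2.3 against N2.2 and −1.46 for Balb/c-1 against N2.3. The 8 other rows around Zfp503 were intergenic, with means of 0.047 to 0.33, and none could be tested.

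Zfp422 showed 1 step, between F2 and N2.1, after uneven levels in the F tumours. The MurSatRep1 copy, which held 71.85% of the signal in the gene's exon copies, stood at 58.1, 57.5 and 65.7 in the YUMM1.7 cultures (60.4 ± 4.54, n = 3). F0 tumours A to D had 22.9, 26.0, 0 and 45.4 (23.6 ± 18.6, n = 4), F1 A, B, D and E had 4.39, 68.6, 41.7 and 0.94 (28.9 ± 32.3, n = 4), and F2 A to E had 21.0, 78.7, 59.0, 22.0 and 70.9 (50.3 ± 27.2, n = 5). Tumours F0 C, F1 A and F1 E were therefore already at or near the bottom of the scale in passages where their fellows were not.

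From N2.1 onward Zfp422 was almost unread. Of the 5 N2.1 tumours only A held reads of MurSatRep1 (3.36, 4 reads), and of the later 19 libraries only Balb/c-2 rep2 B did (1.1, 1 read). Against the floor of 3 reads, F2 was at least 19.8-fold higher than N2.2 and at least 21.0-fold higher than N2.3, and YUMM1.7 at least 21.2-fold higher than Balb/c-1 and at least 18.3-fold higher than CBA. The overlapping MMSAT4 copy (chr6:116626450-116626757) shares 250 bases with MurSatRep1, so the pair counts the same transcript and is no second line of evidence. It stood at 14.5 to 32.9 in YUMM1.7, was 0 in F0 C and F1 E, and was at 0 in every library after F2 except N2.1 D (0.88).

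The loss of Zfp422 reads was not shared by its pseudogene. The 2 matching satellite copies in Zfp422-ps, a feature chosen after its values were seen, had reads in all 40 libraries. Its MurSatRep1 copy (chr17:33305331-33305594) had group means of 80.0 in YUMM1.7, 64.9 in F2, 43.7 in N2.1, 56.9 in Balb/c-1 and 38.9 in CBA, with single libraries between 26.0 and 94.9. Its MMSAT4 copy (chr17:33305163-33305330) ranged from 15.4 to 68.9. The treatment of reads that match both places is not stated in the labels, and its part in the Zfp422 values was not tested.

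**Figure D2:**
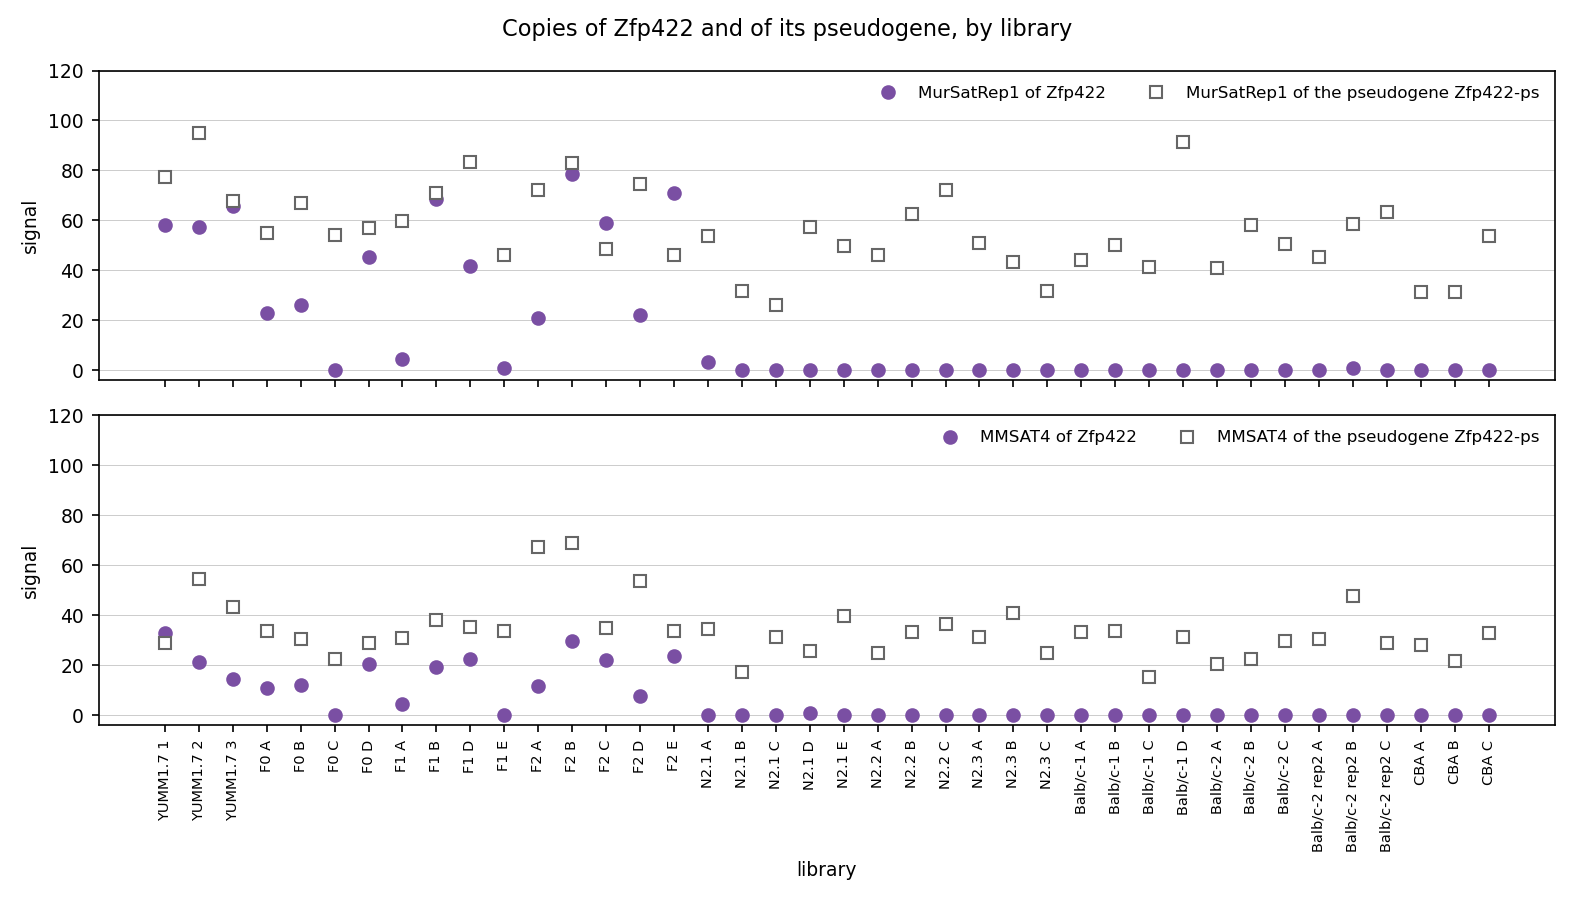
Signal in each of the 40 libraries of the MurSatRep1 copies (upper panel) and the MMSAT4 copies (lower panel) of Zfp422 (filled circles) and of its pseudogene Zfp422-ps (open squares), on linear axes. Both gene copies are at 0 in nearly every library from N2.1 on, while the pseudogene copies keep signals of 26.0 to 94.9 and 15.4 to 68.9.

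The limma test of MurSatRep1 for F0 against YUMM1.7, free of the choice, gave −2.22 (SE 0.89, adjusted p = 0.479, unadjusted p = 0.0170), which did not pass. MMSAT4 gave −1.58 (SE 0.79, adjusted p = 0.587) in the same comparison, and F1 against F0 differed by 0.01 for MurSatRep1 (adjusted p = 0.999). The described differences were 1.74 for F2 against F1, 1.76 for F2 against F0 and −5.05 for N2.1 against F2, where MMSAT4 stood at −3.99. The other 4 rows around Zfp422 had means of 0.022 to 0.246.

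Tbx20 went the other way, from low levels in YUMM1.7 and F0 to higher levels in every later group. Its B1_Mus1 copy held 94.08% of the signal of 9 exon copies. YUMM1.7 stood at 24.2, 63.6 and 59.9 (49.2 ± 21.8, n = 3) and F0 at 70.4, 27.8, 12.3 and 71.5 (45.5 ± 30.1, n = 4), the 2 lowest groups. F1 stood at 105, 191, 96.3 and 177 (142 ± 48.5, n = 4) and F2 at 172, 107, 81.2, 187 and 136 (137 ± 44.1, n = 5). The F1 mean was 3.13-fold and the F2 mean 3.01-fold that of F0, and every F1 and F2 tumour lay above every F0 tumour and YUMM1.7 culture.

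The highest Tbx20 levels were in the N2 tumours. N2.1 A to E had 202, 316, 193, 227 and 175 (222 ± 55.6, n = 5), a mean 1.63-fold that of F2 and 4.89-fold that of F0. N2.2 had 196, 163 and 247 (202 ± 42.0, n = 3) and N2.3 had 282, 189 and 127 (199.5 ± 78.0, n = 3). Balb/c-1 had 227, 89.2, 159 and 137 (153 ± 57.1, n = 4), Balb/c-2 had 143, 124 and 152 (139.8 ± 14.2, n = 3), the rep2 libraries 149, 139 and 188 (159 ± 25.6, n = 3) and CBA 155, 159 and 127 (147 ± 17.5, n = 3). Ordered by mean, each group from N2.1 down to F2 overlapped the next, and the only gap in the order lay between F2 and YUMM1.7.

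No comparison that was free of the choice called Tbx20. With limma, N2.2 against N2.1 gave −0.13 (adjusted p = 1.0), N2.3 against N2.1 gave −0.20 (adjusted p = 0.887) and Balb/c-1 against N2.3 gave −0.38 (SE 0.39, adjusted p = 0.656). The described differences were −0.30 for F0 against YUMM1.7, 1.87 for F1 against F0, −0.06 for F2 against F1, 1.81 for F2 against F0 and 0.73 for N2.1 against F2. The library F0 C had the lowest Tbx20 value, and without it the described difference for F2 against F0 stood at 1.32. Of the 28 other rows around Tbx20, 7 lay in the 3′ UTR, 17 in introns and 4 between genes. Their means ran from 0 to 2.73, the highest being L1MC4 in the 3′ UTR (chr9:24719863-24720237).

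Egr2 varied widely between tumours of the same passage. Its MMSAT4 copy, the only exon copy of the gene, had signals of 4.84, 9.09 and 161 in the 3 YUMM1.7 cultures (58.4 ± 89.1). F0 stood at 18.3, 4.34, 19.4 and 14.5 (14.1 ± 6.86, n = 4), F1 at 3.51, 6.75, 7.49 and 27.3 (11.2 ± 10.8, n = 4) and F2 at 0.91, 15.3, 4.22, 16.3 and 7.27 (8.79 ± 6.77, n = 5). In N2.1 tumour B had 104 beside 5.88, 4.16, 11.5 and 2.26 in A, C, D and E, and in N2.2 tumour B had 162 beside 1.98 and 1.04 in A and C. In YUMM1.7, N2.1 and N2.2, 1 library of each thus stood far above the rest of its group.

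N2.3 was the one group in which every tumour was high. Its Egr2 signals were 123, 124 and 90.1 (112 ± 19.2, n = 3), against 3.69, 5.3, 2.88 and 2.08 in Balb/c-1 (3.49 ± 1.37, n = 4), a ratio of means of 32.2. The Balb/c-1 values were 4, 6, 3 and 2 reads, near the floor of 3 reads, so ratios to their mean are uncertain in size. Balb/c-2 then stood at 36.2, 10.1 and 32.1 (26.1 ± 14.1, n = 3), 7.5-fold the Balb/c-1 mean, and all 3 of its tumours lay above all 4 of Balb/c-1. CBA tumours had 5.23, 5.43 and 2.35 (5, 5 and 2 reads, 4.34 ± 1.73, n = 3). In the order of group means every neighbouring pair overlapped.

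The repeat libraries gave the closest view of measurement error for Egr2. The same 3 Balb/c-2 tumours A, B and C gave 45.2, 14.4 and 51.4 in their second libraries (37.0 ± 19.9), a mean 1.42-fold the first. Tumour B was the lowest in both sets. The limma difference between the sets was 0.48 (SE 1.10, adjusted p = 0.990). With the tumour letter as a replicate block it was 0.48 with an SE of 0.26 (adjusted p = 0.532).

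**Figure D3:**
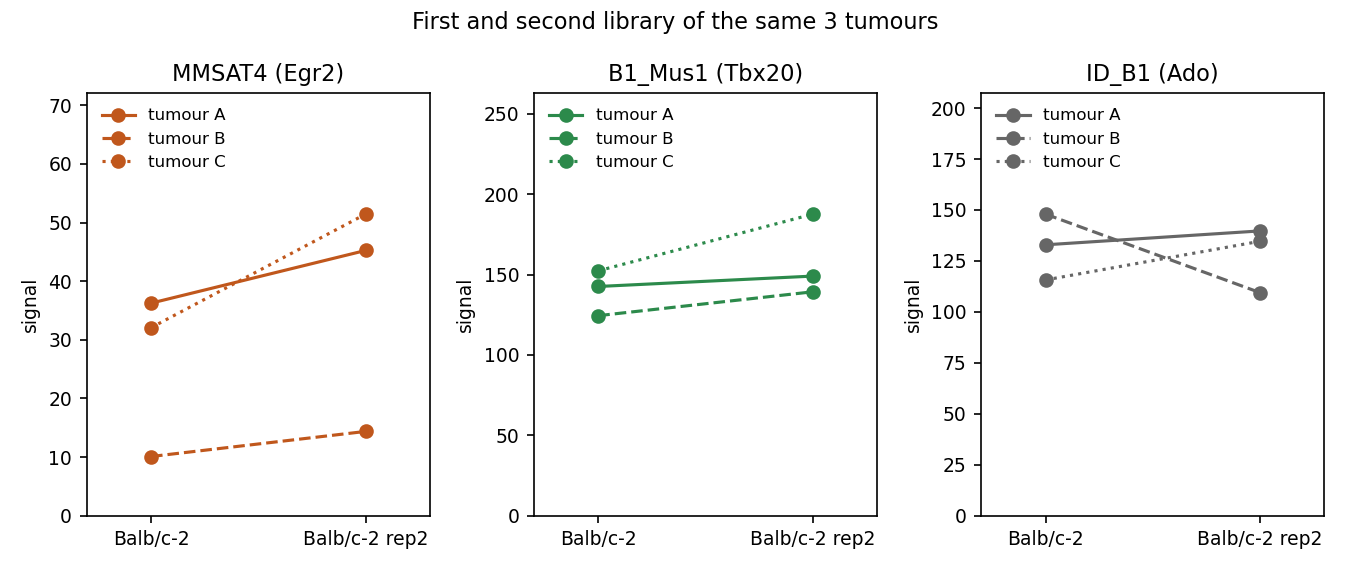
Signal of the Egr2, Tbx20 and Ado (ID_B1) copies in the first and second libraries of the 3 Balb/c-2 tumours, each tumour joined by a line, on linear axes that start at 0. Tumour B is lowest in both library sets for Egr2 (10.1 and 14.4) and for Tbx20 (124 and 139).

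CBA against the Balb/c-2 repeat libraries gave Egr2 its smallest p-value among the comparisons that had no part in its choice. By mean, Egr2 was 8.54-fold higher in the repeat libraries, a ratio of uncertain size because the CBA tumours held only 5, 5 and 2 reads. All 3 repeat libraries lay above all 3 CBA tumours, yet the limma difference of −2.71 (SE 1.10) did not pass (adjusted p = 0.135, unadjusted p = 0.0185). That SE pools the spread of all 11 groups. The SD of the Egr2 signal was 89.1 in YUMM1.7, 44.1 in N2.1 and 92.8 in N2.2, against 1.73 in CBA and 19.9 in the repeat libraries. A limma fit of these last 2 groups alone gave −2.71 with an adjusted p of 0.0422, and the fit without rep2 B, the library from another flow cell, gave −3.27 (adjusted p = 0.102). The other free comparisons were further from the threshold, with −0.66 for F0 against YUMM1.7 (adjusted p = 0.892), −0.85 for F2 against F0 (0.802), 0.54 for N2.1 against F2 (0.745) and −0.12 for N2.2 against N2.1 (1.0).

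**Figure D4:**
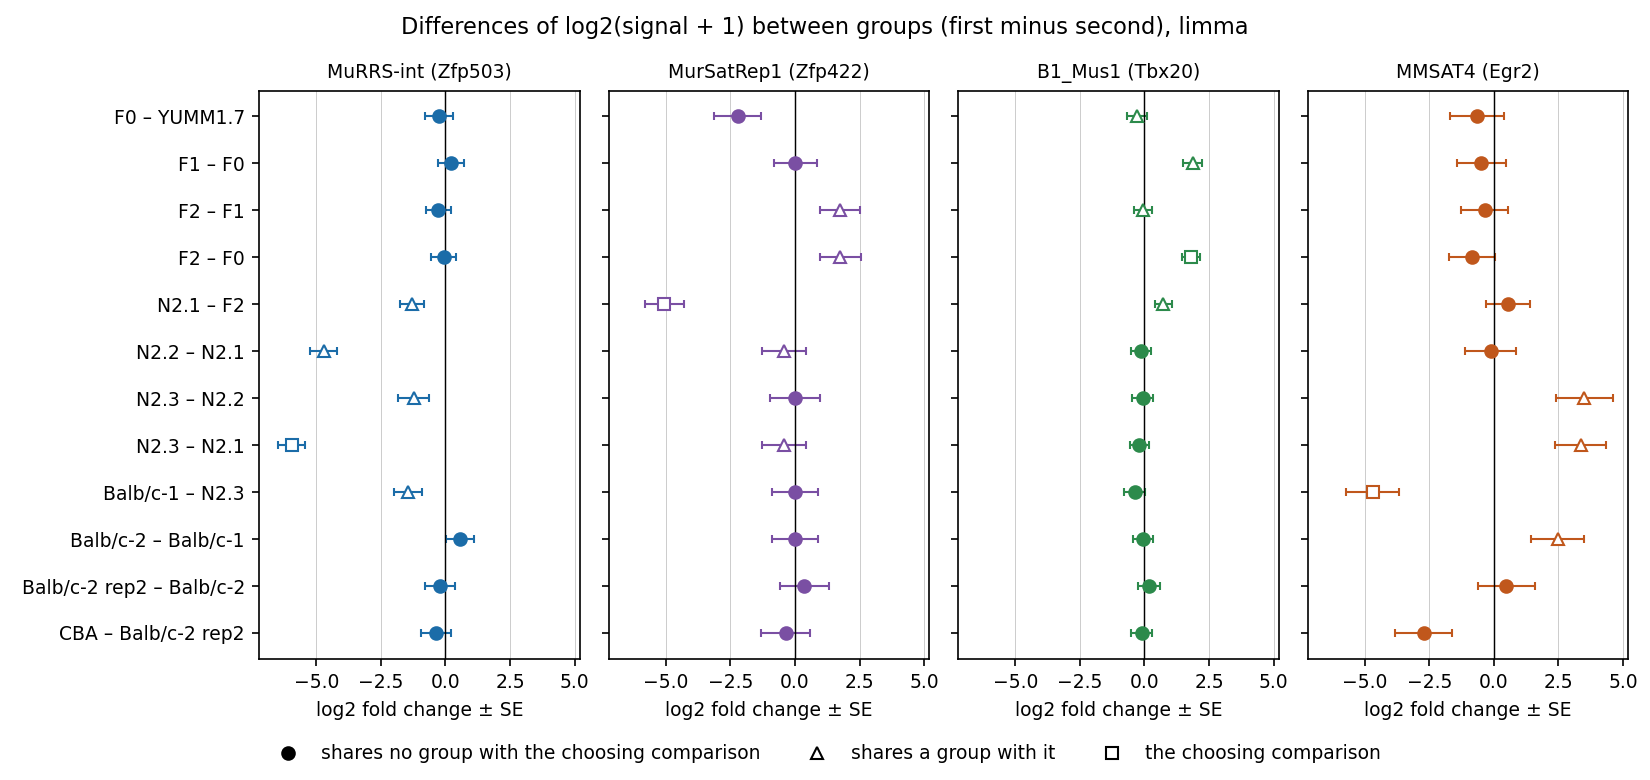
Difference in log2(signal + 1) of the 4 index copies in each of the 12 comparisons, with bars for the standard error. Open squares mark the comparison that chose a copy, open triangles those that share a group with it, and filled circles the free ones. The choosing comparisons stand at −5.94 for Zfp503, −5.05 for Zfp422, −4.69 for Egr2 and 1.81 for Tbx20, and no free difference passed the test.

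Ado, the gene next to Egr2 that encodes a thiol dioxygenase, did not share its large difference between N2.3 and Balb/c-1. A pair of overlapping 3′ UTR copies (YREP_Mm, chr10:67546540-67546689, and ID_B1, chr10:67546590-67546772) were within reach of Egr2. Group means of YREP_Mm ran from 29.9 in CBA to 42.3 in F0, and those of ID_B1 from 84.6 in F2 to 132 in Balb/c-2. In N2.3 and Balb/c-1, where Egr2 means differed 32.2-fold with Balb/c-1 near the floor, both Ado copies had overlapping group ranges. No comparison called either copy with limma. The smallest unadjusted p was 0.0184, for ID_B1 in CBA against the repeat libraries (−0.51, SE 0.21, adjusted p = 0.135). There ID_B1 was lower in CBA, as Egr2 was, and its ranges of 86.75 to 91.27 in CBA and 109.4 to 139.7 in the repeat libraries did not overlap. YREP_Mm gave −0.34 in that comparison (limma, adjusted p = 0.627), with overlapping ranges.

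Read over all copies and comparisons free of the choice, limma made 52 tests and called none, with 3 at an unadjusted p under 0.05. In 8 of the 52, all for the Zfp422 copies, neither group held a read, so they could not have been called, and in 5 more, for Zfp503 and Zfp422, the groups together held only 1 to 4 reads. These copies reached the mean of 5 through the early groups. The edgeR quasi-likelihood test on the recovered reads also called none of 52 (3 under 0.05), limma after TMM scaling none (4 under 0.05), and DESeq2 none of the 36 that had an adjusted p (1 under 0.05). Among all 33215 tested copies, the share called was 0.0% for F0 against YUMM1.7, 0.0% for F2 against F1, 0.012% for N2.3 against N2.2, 0.0% for Balb/c-2 against Balb/c-1, 0.232% for the repeat libraries against Balb/c-2 and 5.93% for CBA against the repeat libraries. In these 6 comparisons none of the 7 member copies was called. Where limma called no copy at all, 2854 (F0 against YUMM1.7), 2596 (F2 against F1) and 3520 (Balb/c-2 against Balb/c-1) had an unadjusted p under 0.05, edgeR called 1, 1 and 0 copies and DESeq2 called 6, 15 and 33.

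In the other comparisons the calls follow from how the copies were picked, and nothing is read from them. One of the 7 was called in F1 against F0 and in F2 against F0 (both Tbx20), where 0.268% and 0.0391% of all copies were. A pair was called in N2.1 against F2 (the overlapping Zfp422 copies), where 9.7% of all copies were. One was called in N2.2 against N2.1 and in N2.3 against N2.1 (both Zfp503), where 0.111% and 1.4% were, and 1 in Balb/c-1 against N2.3 (Egr2), where 2.2% were. The median difference of all copies was 0.26 in N2.1 against F2 and 0.20 in CBA against the repeat libraries, and TMM scaling moved these medians to 0.06 and 0.10. In N2.1 against F2, 2439 of the 3222 calls were higher, and with TMM scaling 1378 of 2703. The share of signal in introns moved with this comparison, at 18.9% ± 4.32 in F2 and 24.8% ± 2.28 in N2.1. With it as a covariate 1147 copies were called. The differences of the overlapping Zfp422 copies then stood at −4.69 and −3.44. Nothing is read from these either, because this comparison chose the index copy.

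Beyond 10 kb and up to 1 Mb, no tested copy was called in the direction of its index copy in the choosing comparison. Within 10 kb, the MMSAT4 copy that overlaps the Zfp422 index copy was called in its direction, as described above. Between 10 kb and 1 Mb away, 21 tested copies lay around Zfp503, 20 around Egr2, 16 around Tbx20 and 24 around Zfp422. There, none was called around Tbx20, and those around Zfp503 and Egr2 were for a higher signal. A pair of copies in the 3′ UTR of Samd8, near Zfp503, rose in N2.3 against N2.1 (1.02 and 0.97), and 1 in Zfp365, near Egr2, rose in Balb/c-1 against N2.3 (1.32).

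Other copies resembled Zfp503 in part, with higher signal up to F2 and low signal from Balb/c-1 on. Likeness was measured as Pearson's r of log2(signal + 1) over the 40 libraries, among tested copies with a mean of at least 20, and the 5 highest are named. It is a description, since libraries of a group share their passage and the copies were picked by their values in these same libraries. For Zfp503 they lay in Hdgfl3 (r = 0.960), Zcchc3 (0.941), Ociad2 (0.936), 1500011B03Rik (0.935) and Phactr2 (0.929). All 5 had their N2.3 signal mainly in tumour C, as Zfp503 did. There, Hdgfl3 stood at 131, against 0 in N2.3 A and B. Ociad2 stood at 74.2, against 0 and 1.58.

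Unlike Zfp503, 4 of these 5 copies (all but Zcchc3) were higher in N2.1 C and E than in A, B and D. Hdgfl3 had 236 and 201 in N2.1 C and E, against 39.5, 61.4 and 23.9 in A, B and D. Ociad2 had 83.1 and 68.5 in C and E, against 13.4, 7.16 and 5.3. Zfp503 was lowest of the 5 tumours in C (125) and highest in E (233), and Zcchc3 stood at 72.8 in C and 54.2 in E, against 56.3, 91.0 and 57.4 in A, B and D.

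**Figure D5:**
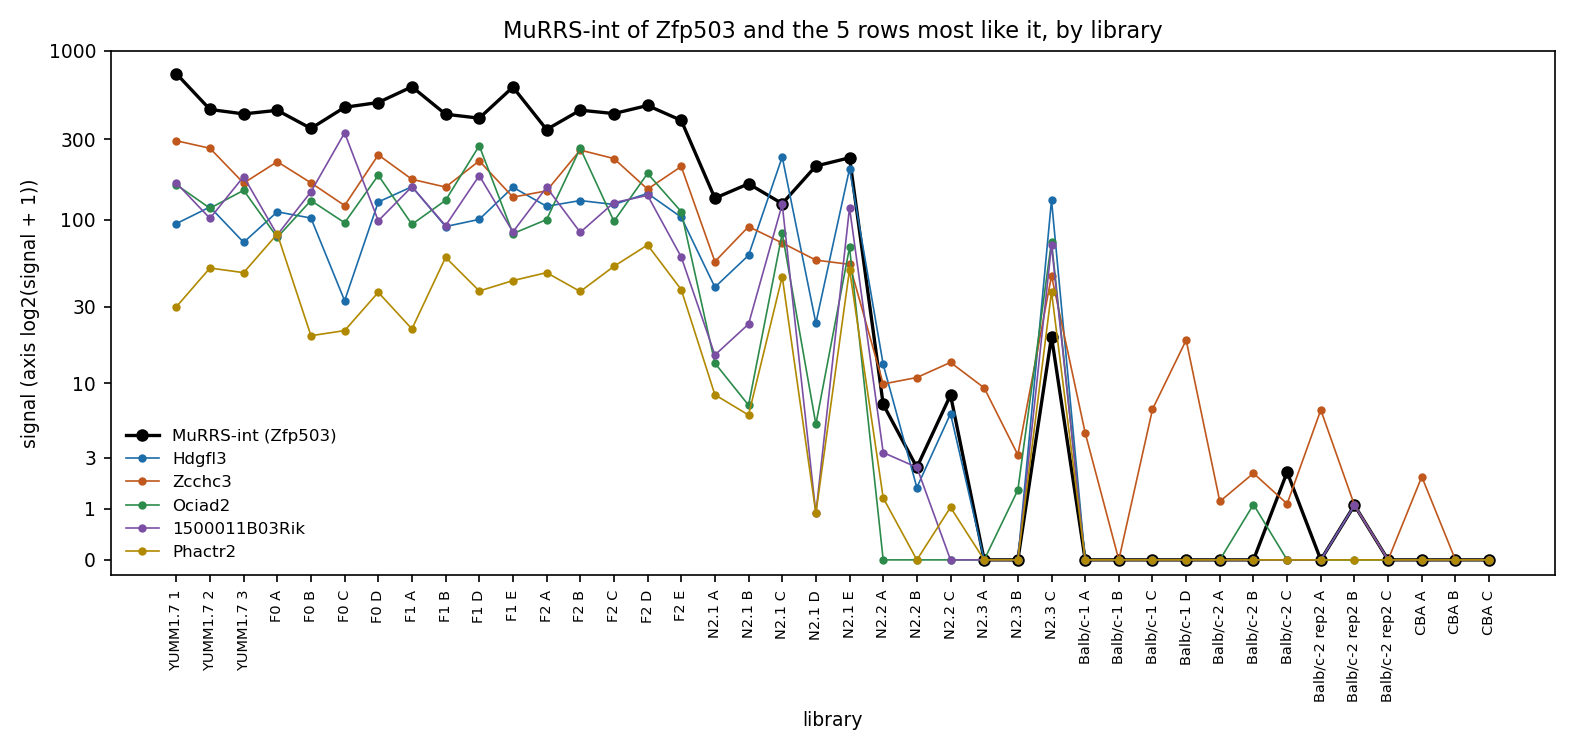
Signal per library of the Zfp503 copy and of the 5 copies most like it (in Hdgfl3, Zcchc3, Ociad2, 1500011B03Rik and Phactr2), with the 40 libraries ordered by group along the horizontal axis and the vertical axis spaced as log2(signal + 1). In N2.3 the signal of all 6 copies is concentrated in tumour C, and Hdgfl3 has 236 and 201 in N2.1 C and E.

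For Zfp422 the most similar copies lay in Atl3, an endoplasmic reticulum GTPase (r = 0.895), Zdhhc2, a palmitoyltransferase (0.888), an intron of the imprinted exchange factor gene Rasgrf1 (0.877), the transcription factor gene Sox7 (0.875) and AC124502.3 (0.872). Sox7 and Rasgrf1 were low in F1 A and F1 E (7.9 and 23.5 for Sox7, 9.66 and 5.64 for Rasgrf1), where Zfp422 was low too. Rasgrf1 was as low in F1 B (10.1), where Zfp422 was highest of the F1 tumours. In F0 C, where Zfp422 was at 0, Zdhhc2 was also at 0 but Sox7 had 60.3 and Rasgrf1 133. For Tbx20 the first was Gm14137 (0.882), followed by 2 intergenic IAP-type copies (0.860 and 0.827), 2510002D24Rik (0.765) and an intron copy of Gm37013 (0.742).

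Egr2 had no copy that followed it as closely. Its most similar ones lay in Dync1li2, a light intermediate chain of dynein (r = 0.778), Mul1, a mitochondrial ubiquitin ligase (0.751), Imp4 (0.734), Cwc25 (0.728) and an intergenic MERVL_2A-int copy (0.724). Dync1li2 stood at 311, 339 and 533 in N2.3. Among the index copies themselves, Zfp503 and Zfp422 had r = 0.734, and Tbx20 had −0.399 with Zfp503 and −0.432 with Zfp422. Egr2 lay between −0.114 and 0.064 with the other 3.

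Related genes were read from the summed signal of all their exon copies, tested by limma over 7634 host genes. Of 16 immediate early genes, the class that Egr2 belongs to, 3 could be tested. Junb, an AP-1 subunit, fell in N2.1 against F2 from 213 ± 38.4 to 151 ± 24.6 (−0.49, SE 0.17, adjusted p = 0.0483), where 15.1% of all host genes were called. Zfp36, which destabilises cytokine mRNAs, fell in CBA against the repeat libraries from 346 ± 81.8 to 170 ± 20.4 (−1.0, SE 0.34, adjusted p = 0.0471), where 12.5% were called. Fosb was called in no comparison. In N2.3, where all 3 tumours were high in Egr2, Junb stood at 231 ± 18.8 (n = 3) and Fosb at 0.515 ± 0.447.

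The other families were thinly covered. Of 6 EGR and NAB genes only Egr2 could be tested, and of 8 cardiac factors none. Of 15 T-box genes 2 could be tested, Tbx20 and Tbx18, and Tbx18 was not called. Of 6 NET and Groucho genes 2 could be tested, Zfp503 and Tle3, a Groucho corepressor, with group means of 14.7 to 44.7 and no call. Among 10 Schwann cell and myelin genes only Prx was tested, at 8.23 to 19.6, and it was not called. All 5 genes of a zinc finger list with Zfp422 could be tested. Zfp637 fell in N2.1 against F2, from 373 ± 97.1 to 243 ± 37.95 (limma, −0.59, SE 0.16, adjusted p = 0.0110), where 15.1% of all host genes were called. Zfp239, Zfp248 and Zfp9 were not called.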

How the data were processed

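The deposited table holds 1 signal value per repeat copy and library. Its values are whole reads that the authors divided by 1 factor per library, which was found from the deposited signal itself (100% of values are whole within 0.1 read). Tools named, per the submitters' processing notes, are HISAT2 2.0.5, StringTie 1.3.3b and featureCounts 1.5.0-p3, with mm10; the repeat annotation, strand use and treatment of reads with several matches are not stated. Copies were placed in genes with bedtools 2.31.1 and GENCODE M21. The main test was limma 3.58.1 on log2(signal + 1), with 11 group means, a trended prior and Benjamini-Hochberg adjustment over copies with a mean of at least 5, called at an adjusted p under 0.05. On this scale changes of low copies are understated. Alternatives were edgeR 4.0.16 and DESeq2 1.42.0 on recovered reads, TMM scaling, pseudocounts of 0.5 and 4, a mean of at least 1, fits of 2 groups alone, the intron share as a covariate for N2.1 against F2, and leaving out each library; the limma script was tested on simulated data. Members and lists were chosen with earlier results of these data known. Named are the index copies, other tested members, the 5 most similar copies, and called list members. The letters pair the 2 Balb/c-2 library sets because they mark the same tumours, whose deviations had correlations of 0.155, 0.251 and 0.255.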

Additional observations from a re-analysis of the deposited data

Results flagged for a closer look

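In 5 of the 32 combinations of a member copy and a group of 4 or 5 libraries, 1 library lay far from the others by Dixon's gap test at 95%. Chance flags about 1 in 20. For Egr2, F1 E stood at 27.27 with the next tumour at 7.487, and N2.1 B at 104.34 with the next at 11.48. The ID_B1 copy in Ado was lowest in Balb/c-1 A, at 115.18, with the others at 127.8 to 130.1. In N2.1, MurSatRep1 in Zfp422 had 3.36 in A (4 reads) and MMSAT4 in Zfp422 had 0.88 in D (1 read), and the other 4 tumours were at 0 in each case. With the others at 0 any read is flagged, so the flags of these Zfp422 copies were fixed in advance and cannot be set against 1 in 20. Groups of 3 were not examined this way, among them YUMM1.7 and N2.2 with their single high Egr2 libraries.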

How the results depend on the processing

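Of the counts of member copies called, 170 stayed within 1.5 times the main count and 18 moved. Fits of the 2 groups alone gave 0 in place of 1 for F1 against F0 and F2 against F0, and 1 in place of 0 for CBA against the repeat libraries (Egr2). With edgeR, F2 against F0 gave 0 and Balb/c-1 against N2.3 gave 2. A pseudocount of 4 and a mean of at least 1 each gave 2 for N2.3 against N2.1. Leaving out single libraries gave 0 to 1 for F1 against F0 (0 without F0 C), 0 to 1 for F2 against F0 (0 without F0 B, F0 C, F2 A, F2 B or F2 D), 0 to 1 for N2.3 against N2.2 (1 without N2.2 B or N2.3 C), 1 to 2 for N2.3 against N2.1 (2 without N2.1 B) and, in Balb/c-1 against N2.3, 1 to 2 (2 without N2.3 A or B). The cause was not tested. With the tumour letter as a replicate block, 0 member copies were called between the Balb/c-2 library sets. Of the described differences, that of Tbx20 ran from 1.32 to 2.13 over 17 alternatives and missed the threshold with the 2 groups alone (1.81, adjusted p = 0.556), with edgeR (1.68, 0.0590) and without 5 single libraries (adjusted p = 0.0505 to 0.270). Zfp503 ran from −7.40 to −4.57, Zfp422 from −6.41 to −3.41 and Egr2 from −4.87 to −3.96. These stayed past it wherever an adjusted p was given, and DESeq2 gave none for Egr2. The copies were chosen by these same comparisons, so passing was built in and is no support. The adjusted p of Egr2 in CBA against the repeat libraries ran from 0.0422 to 0.333. Counts over all copies moved more. Without single libraries they ran from 0 to 6 for F0 against YUMM1.7, 10 to 392 for F1 against F0 (lowest without F0 C), 0 to 9 for F2 against F1, 0 to 48 for F2 against F0 (0 without F0 B), 1919 (without F2 B) to 3561 for N2.1 against F2, 17 (without N2.2 A) to 50 for N2.2 against N2.1, 0 to 33 for N2.3 against N2.2, 222 (without N2.1 C) to 696 for N2.3 against N2.1, in Balb/c-1 against N2.3 313 (without N2.3 C) to 732, and 1 to 130 for Balb/c-2 against Balb/c-1 (130 without Balb/c-2 B). The repeat libraries gave 12 (without Balb/c-2 A) to 58 against Balb/c-2, and 153 with the replicate block. For CBA against them the count was 631 without rep2 C, 748 without CBA C, 872 without CBA A and 2180 without rep2 B. Depth limits what is seen below 3 reads a library.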
